A study of Homo sapiens with 6 samples.

Results

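The genes described here are the potassium channel genes of the KCN nomenclature, read in cells of the established human line MDA-MB-231, derived from a triple-negative breast cancer and exposed to riluzole or vehicle. They were taken as every probe on the array whose gene symbol begins with KCN followed by a letter, which gave 177 of 47231 probes and 97 of 30818 genes. The rule used names alone and no measured value. It takes in the pore-forming channels, the auxiliary subunits that travel with them, the regulator KCNRG and a pair of noncoding RNAs of the KCNQ1 locus, KCNQ1OT1 and KCNQ1DN.

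The riluzole group held 3 samples treated with 25 µM riluzole, and the vehicle group held 3 samples treated with DMSO. The samples are labelled as treated for 24 hours, while the series title says overnight. Each sample was read on 1 single-colour Illumina bead array. All 6 samples came from 1 cell line in the same medium, and the labels do not say whether they came from separate cultures, so a p-value here covers the spread among these 6 samples alone, and that spread may be technical.

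Potassium channels let potassium leave the cell along its gradient, which sets the membrane potential, affects calcium entry and takes part in the control of cell volume. Voltage-gated channels open on depolarization, calcium-activated channels open when calcium or sodium in the cell rises, inward rectifiers pass potassium best near the resting potential, and tandem-pore (KCNK) channels carry the background leak. Riluzole is known as an opener of some of these proteins, among them the mechanosensitive leak channel KCNK2, the calcium-activated KCNN channels and the large-conductance channel KCNMA1. The arrays read transcripts and not channel activity, and they ask whether the messages of this gene family differed between the treatments.

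Most potassium channel genes were not detected in these cells. A gene was taken as detected when 3 or more of the 6 arrays gave 1 of its probes a detection p below 0.05. By this measure 19 of 97 KCN genes were detected, which is 19.6%, against 48.3% of all 30818 genes on the array. Of the 78 others, 60 had no probe that passed on any array, 14 had one that passed on 1 array and 4 had one that passed on 2 arrays. Per array, between 13.0% and 15.3% of the KCN probes passed with riluzole and between 12.4% and 16.9% with vehicle, against 43.4% to 44.4% of all probes over the 6 arrays. The 153 KCN probes that failed the filter had mean raw signals between 72.2 and 135, with a median of 107, close to the mean of the negative control probes, which was 107 to 111 per array. The 4 genes just outside the filter were KCNS1, which passed on 2 riluzole arrays and 0 vehicle arrays, and KCND3, KCNJ14 and KCNK13, which each passed on 1 riluzole array and 1 vehicle array.

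**Figure D1:**
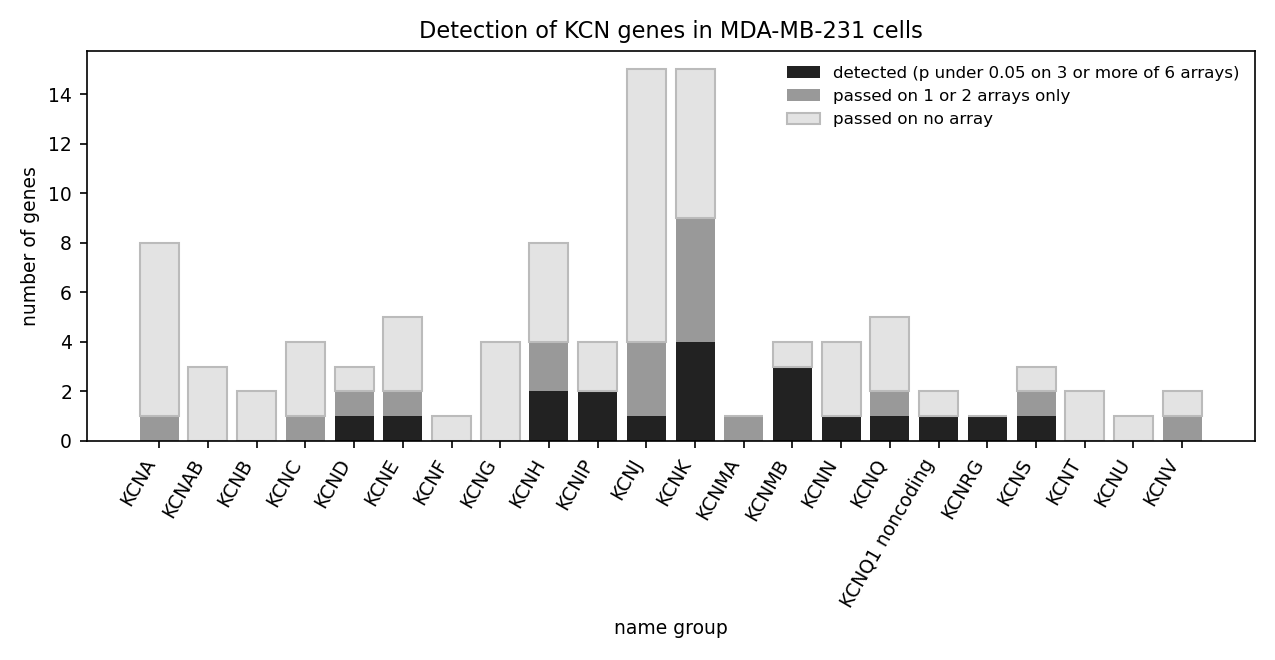
Number of KCN genes in each name group (horizontal axis), stacked by whether they were detected, passed on 1 or 2 arrays only, or passed on no array. The detected genes are few in each group, with 4 of 15 in KCNK and 1 of 15 in KCNJ.

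Detection was uneven between the classes of channel. The tandem-pore class had 4 of 15 genes detected (KCNK1, KCNK3, KCNK4 and KCNK6). The voltage-gated class had 5 of 40, among them KCND1, KCNH6, KCNH8 and KCNS3, with none of the 8 KCNA genes, the shaker-type channels, among them. Of the 15 inward rectifiers only KCNJ10, a channel best known from glia, was detected. The 8 genes classed by name as calcium-activated (KCNMA1, KCNN1 to KCNN4, KCNT1, KCNT2 and KCNU1) gave 1, KCNN4. Auxiliary genes gave 7 of 17: KCNE5 (named KCNE1L on the array), the calcium-binding subunits KCNIP3 and KCNIP4, the large-conductance channel subunits KCNMB2, KCNMB3 and KCNMB4, and KCNRG. In all, 12 of the 22 name groups held a detected gene.

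Detected and undetected KCN genes had similar counts of CG, the dinucleotide that is dense in the promoters of widely expressed genes, in their RefSeq promoter windows. The windows run from 250 bases before to 50 bases after the gene start on GRCh38.p14, and CG, which reads the same on both strands, was counted in each. The 16 of 19 detected genes with a window had a median of 22 CG, the 56 of 78 undetected genes a median of 18, and all 27305 windows in the table a median of 14. Windows with 10 or more CG made up 62.5% of the detected, 64.3% of the undetected and 56% of all windows. Among the channels named above as opened by riluzole, KCNK2 was undetected and has 5 CG. KCNN1, KCNN2 and KCNN3 were also undetected and have 33, 22 and 13 CG. The windows of KCNN4 and KCNMA1, calcium-activated channels that riluzole is known to act on, are shown because their CG counts differ widely and run against their detection. KCNN4 was detected on all 6 arrays and has 6 CG, and KCNMA1 missed the filter and has 54 CG. Capitals mark each CG, and both genes lie on the minus strand, at chr19:43780924-43781223 for KCNN4 and chr10:77637759-77638058 for KCNMA1, printed 5′ to 3′ along the gene.
KCNN4: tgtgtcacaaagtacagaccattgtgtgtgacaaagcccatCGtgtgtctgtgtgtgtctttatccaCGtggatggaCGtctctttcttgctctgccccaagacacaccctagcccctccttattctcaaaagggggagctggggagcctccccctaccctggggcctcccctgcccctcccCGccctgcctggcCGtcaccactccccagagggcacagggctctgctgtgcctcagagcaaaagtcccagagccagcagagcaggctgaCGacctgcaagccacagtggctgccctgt
KCNMA1: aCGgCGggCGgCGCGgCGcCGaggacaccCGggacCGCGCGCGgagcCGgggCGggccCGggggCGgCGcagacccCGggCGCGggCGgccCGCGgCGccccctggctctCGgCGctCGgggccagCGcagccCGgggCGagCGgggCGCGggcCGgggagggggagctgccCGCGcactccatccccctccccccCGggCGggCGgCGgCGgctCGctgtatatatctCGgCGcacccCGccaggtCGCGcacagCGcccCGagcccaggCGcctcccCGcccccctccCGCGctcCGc

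KCNN4, the intermediate-conductance calcium-activated channel, was the only detected gene of its class, and its riluzole and vehicle arrays overlapped. Its normalized log2 intensities were 8.70, 8.87 and 8.60 with riluzole, against 8.62, 8.63 and 9.18 with vehicle. The highest array was vehicle replicate 3, and the other 5 arrays lay between 8.60 and 8.87. The log2 fold change, riluzole minus vehicle, was -0.09 ± 0.17 (SE), and the 95% interval of the fold ran from 0.721 to 1.23 (limma, Benjamini-Hochberg adjusted p = 0.854, n = 3 per group). In bulk samples such as these, fewer cells with a transcript and less of it per cell cannot be told apart. Without vehicle replicate 3 the log2 fold change was 0.10 (adjusted p = 0.803). The small-conductance relatives KCNN1, KCNN2 and KCNN3 were not detected on any array.

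KCNK2 and KCNMA1 were not detected by the filter used here. KCNK2 was read by 4 probes, and none of them passed on any of the 6 arrays. Its probe with the strongest signal gave raw values of 117, 108 and 112 with riluzole, against 124, 112 and 125 with vehicle, all below the 95th percentile of the negative controls, which lay between 135 and 143 per array. KCNMA1, the pore of the large-conductance channel, was read by 3 probes. One of them gave 158, 114 and 104 with riluzole, against 120, 86.9 and 112 with vehicle, and passed on riluzole replicate 1 alone. No fold is given for either gene, since neither met the detection filter.

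Some subunits of the large-conductance channel were detected although its pore was not. KCNMB2, KCNMB3, KCNMB4 and LRRC26 were detected, while KCNMB1, LRRC38, LRRC52 and LRRC55 passed on 0 arrays. Detection rested on 1 of 4 probes for KCNMB2 and on 1 of 3 for KCNMB3, whose other probes failed the filter. KCNMB4 and LRRC26 each had 1 probe. KCNMB4, which slows the gating of that channel, was at 7.33, 7.26 and 7.36 log2 units with riluzole, against 7.41, 8.23 and 7.63 with vehicle. All riluzole arrays lay below all vehicle arrays, but the vehicle arrays were spread over 0.42 log2 units (SD) and the riluzole arrays over 0.05. The log2 fold change was -0.44 ± 0.19 (SE), an estimated 1.36-fold lower level (95% interval 0.996 to 1.85), and it did not pass (limma, adjusted p = 0.312). Without vehicle replicate 2, the highest array, it was -0.20 (adjusted p = 0.510). KCNMB2, which inactivates the channel, was at 6.74, 6.73 and 6.81 with riluzole, against 7.16, 7.19 and 6.57 with vehicle, so the groups overlapped (log2 fold change -0.21, adjusted p = 0.599). With 1 array left out KCNMB2 ran from -0.41 without vehicle replicate 3 (adjusted p = 0.175) to -0.11 without vehicle replicate 2. For KCNMB3 the log2 fold change was 0.01 (adjusted p = 0.988). LRRC26, a further subunit that shifts the opening of the channel toward rest, was detected on all 6 arrays at 9.84 ± 0.15 log2 units with riluzole and 10.20 ± 0.12 with vehicle (SD, n = 3 each), and did not pass (log2 fold change -0.36, adjusted p = 0.183).

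Across the whole table, 0 of the 19 detected KCN genes passed the adjusted threshold of 0.05 in the limma fit. Over all 14887 genes tested 1.18% passed, 0.752% higher and 0.43% lower with riluzole. At an unadjusted p under 0.05 there were 6 KCN genes, 4 higher and 2 lower, against 16.3% of all genes. Of the 19, 10 had a positive and 9 a negative log2 fold change, with a median of 0.01, and the median over all genes was 0.00. The median size of the change, sign aside, was 0.12 log2 units for the KCN genes and 0.14 for all genes. For 12 of the 19 the adjusted p was above 0.5. In 5 of the 19 the groups did not overlap, 4 with riluzole higher and 1 with riluzole lower, where 22.7% of all genes had groups that did not overlap, 11.8% higher and 11% lower with riluzole.

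**Figure D2:**
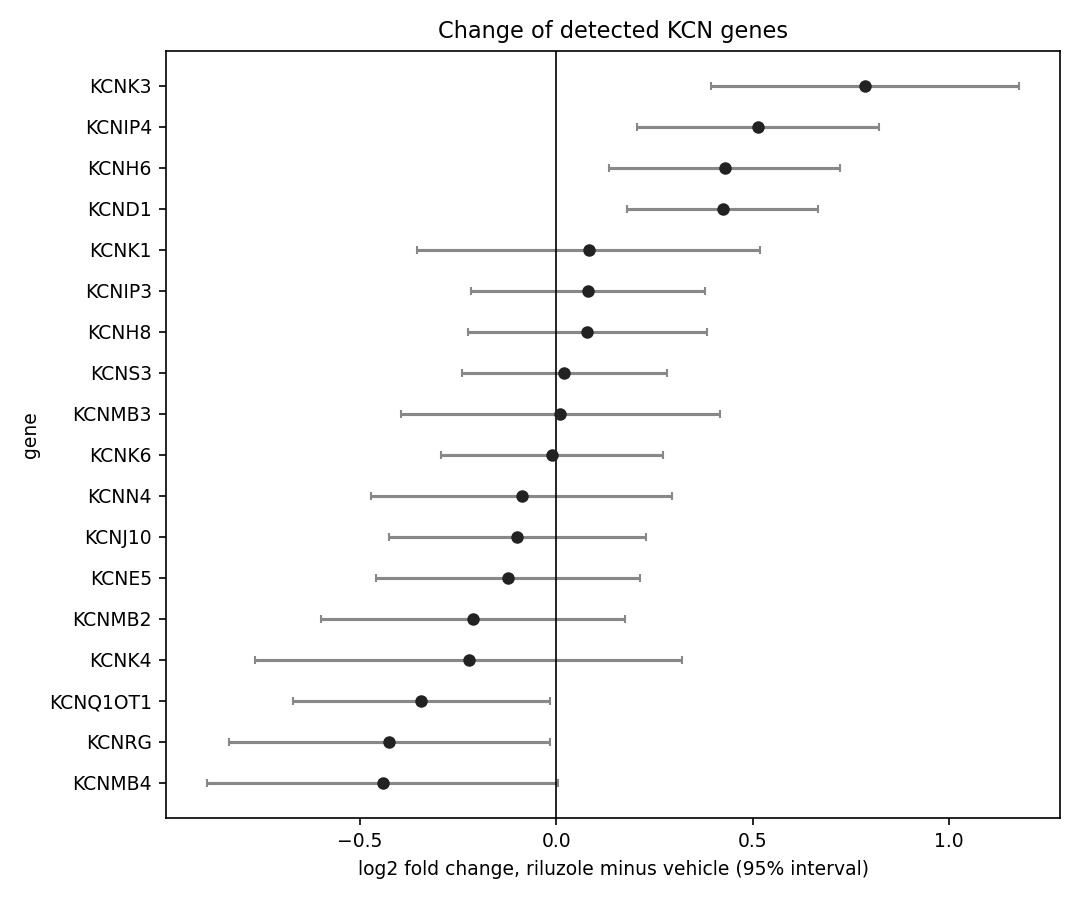
Log2 fold change of detected KCN genes (all but 1), riluzole minus vehicle, as a point with its 95% interval from the limma fit (horizontal axis). The 4 highest genes, from KCND1 at 0.42 to KCNK3 at 0.79, have intervals above 0, KCNQ1OT1 at -0.34 and KCNRG at -0.43 have intervals below 0, and none passed after adjustment over all genes.

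Among the leak channels, KCNK3 had the smallest p-value of the family. KCNK3 is an acid-sensitive background channel. It was at 6.65, 6.43 and 6.62 log2 units with riluzole, against 5.82, 6.09 and 5.42 with vehicle. All 3 riluzole arrays lay above all 3 vehicle arrays, and its only probe passed detection on 3 riluzole arrays and 2 vehicle arrays. The log2 fold change was 0.79 ± 0.17 (SE), a 1.73-fold higher level (95% interval 1.31 to 2.26), with an unadjusted p of 0.00164 and an adjusted p of 0.0751 in limma. The log2 fold change was 0.36 without background correction (adjusted p = 0.0559). With the authors' processed values, whose steps are not given, it was 1.08 (adjusted p = 0.151). With an intensity trend and robust variance it passed (0.79, adjusted p = 0.0471). The raw signals were 187, 185 and 190 with riluzole, against 151, 158 and 129 with vehicle, so the probe was close to the negative controls.

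KCNK4, a mechanosensitive leak channel, gave different answers on its probes. Its brightest probe was at 7.23, 7.16 and 7.96 log2 units with riluzole, against 7.32, 7.94 and 7.76 with vehicle, and the groups overlapped (log2 fold change -0.22, adjusted p = 0.716). With 1 array left out this probe ran from -0.48 without riluzole replicate 3 (adjusted p = 0.356) to -0.08 without riluzole replicate 2. A further probe passed detection on all 3 riluzole arrays and on 0 vehicle arrays, so it entered the fit through the riluzole group alone and its difference is given as a description. That probe was at 5.76, 5.93 and 6.07 with riluzole, against 5.10, 5.29 and 5.58 with vehicle, with the groups apart. Set against the lowest detected signal of the vehicle arrays, it was at least 1.24-fold higher with riluzole, a bound that was not tested. The log2 fold change of that probe was 0.60, given without a p-value because the filter kept it through the group where it was high. With both probes averaged the log2 fold change was 0.19, opposite in sign to the brightest probe. That mean rests in part on the probe chosen through the riluzole group, so its p-value is left out too. On their brightest probes the remaining leak channels were close to level. Log2 fold changes were 0.08 for KCNK1 (adjusted p = 0.887) and -0.01 for KCNK6 (adjusted p = 0.981), both members of the weak inward-rectifying branch. A further kept probe of KCNK1 gave -0.28, opposite in sign.

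**Figure D3:**
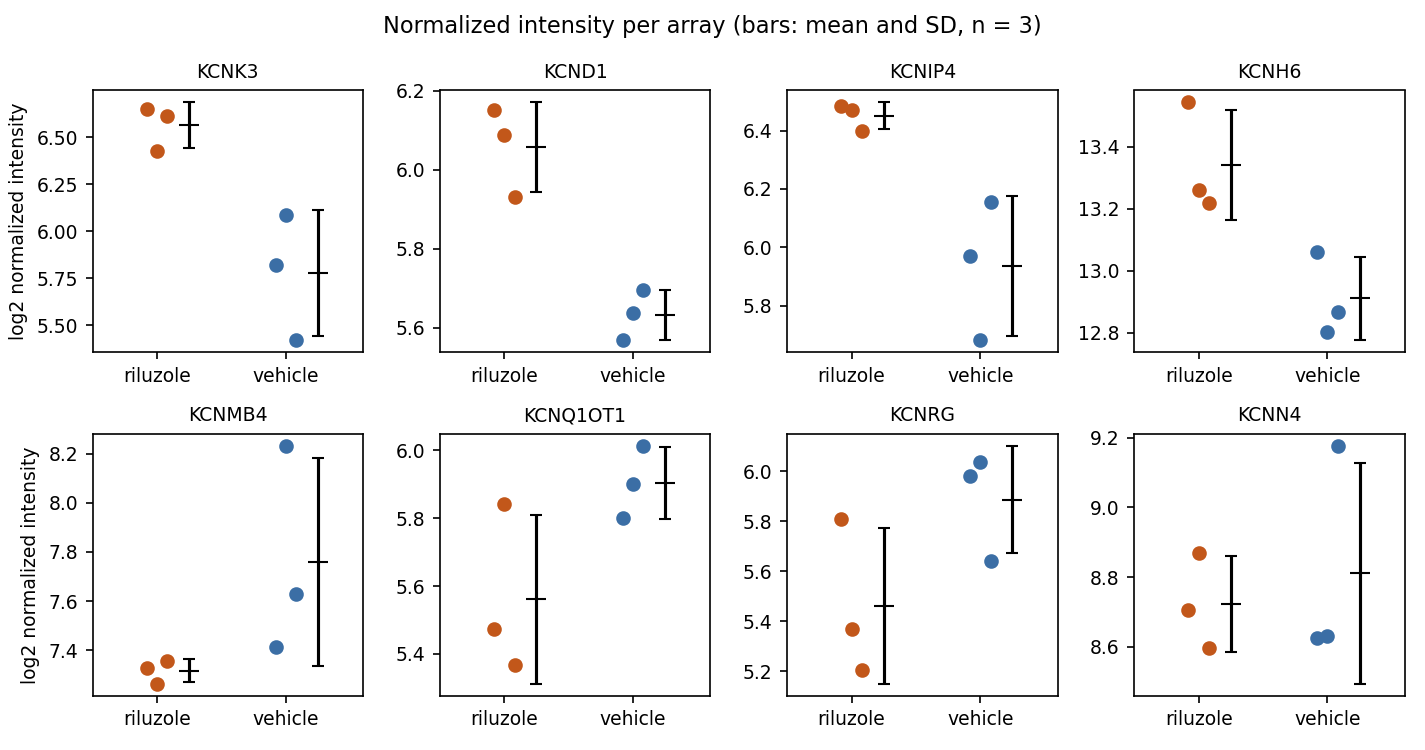
Normalized log2 intensity per array for KCNK3, KCND1, KCNIP4, KCNH6, KCNMB4, KCNQ1OT1, KCNRG and KCNN4, with riluzole at the left and vehicle at the right of each panel. Points are arrays and bars are the mean and SD of 3 arrays. The groups are apart in the first 5 panels and overlap in the last 3.

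A voltage-gated channel and a subunit of the same complex both lay higher with riluzole without passing. KCND1 forms rapidly inactivating A-type channels, and the KCNIP proteins are calcium-binding subunits of that channel type. KCND1 was at 6.15, 6.09 and 5.93 log2 units with riluzole, against 5.57, 5.64 and 5.69 with vehicle, detected on 3 riluzole and 2 vehicle arrays. Its vehicle values lay at the limit of detection, where the lowest detected level of the vehicle arrays was 5.59 to 5.63 log2 units. The groups did not overlap, and the log2 fold change was 0.42 ± 0.11 (SE), a 1.34-fold higher level (95% interval 1.13 to 1.59, limma adjusted p = 0.105). KCNIP4 was at 6.48, 6.47 and 6.40 with riluzole, against 5.97, 5.68 and 6.16 with vehicle. Its log2 fold change was 0.51 ± 0.13 (SE), a 1.43-fold higher level (95% interval 1.15 to 1.77, adjusted p = 0.115), read on 1 of its 6 probes, the other 5 having failed the filter. Without background correction the log2 fold changes were 0.19 for KCND1 and 0.23 for KCNIP4, and the authors' processed values gave 0.64 for KCND1. With an intensity trend and robust variance neither passed (limma, adjusted p = 0.296 for KCND1 and 0.180 for KCNIP4).

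The related subunit KCNIP3, which also acts as a transcriptional repressor, was at 9.33, 9.59 and 9.41 log2 units with riluzole, against 9.52, 9.16 and 9.40 with vehicle. Its groups overlapped, with a log2 fold change of 0.08 (adjusted p = 0.827). The channel genes KCND2 and KCND3 were not detected, nor were the extracellular partners DPP6 and DPP10.

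KCNH6, an erg-type channel of the ether-a-go-go branch, was bright on 1 probe and undetected on its others. One of its 3 probes gave raw signals of 11094, 10340 and 9313 with riluzole, against 9389, 7188 and 7363 with vehicle. The other 2 probes did not pass on any array, with raw signals between 87.2 and 128 with riluzole and between 82.5 and 119 with vehicle. The bright probe was at 13.54, 13.26 and 13.22 log2 units with riluzole, against 13.06, 12.80 and 12.87 with vehicle, and the groups did not overlap. Its log2 fold change was 0.43 ± 0.13 (SE), a 1.35-fold higher level (95% interval 1.1 to 1.65, limma adjusted p = 0.155). It passed without background correction (0.42, adjusted p = 0.0399) and with a variance trend and robust settings (adjusted p = 0.0219). Which transcript the bright probe reads was not tested, since no probe sequence was used here, so its values are those of 1 probe that the array names KCNH6.

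**Figure D4:**
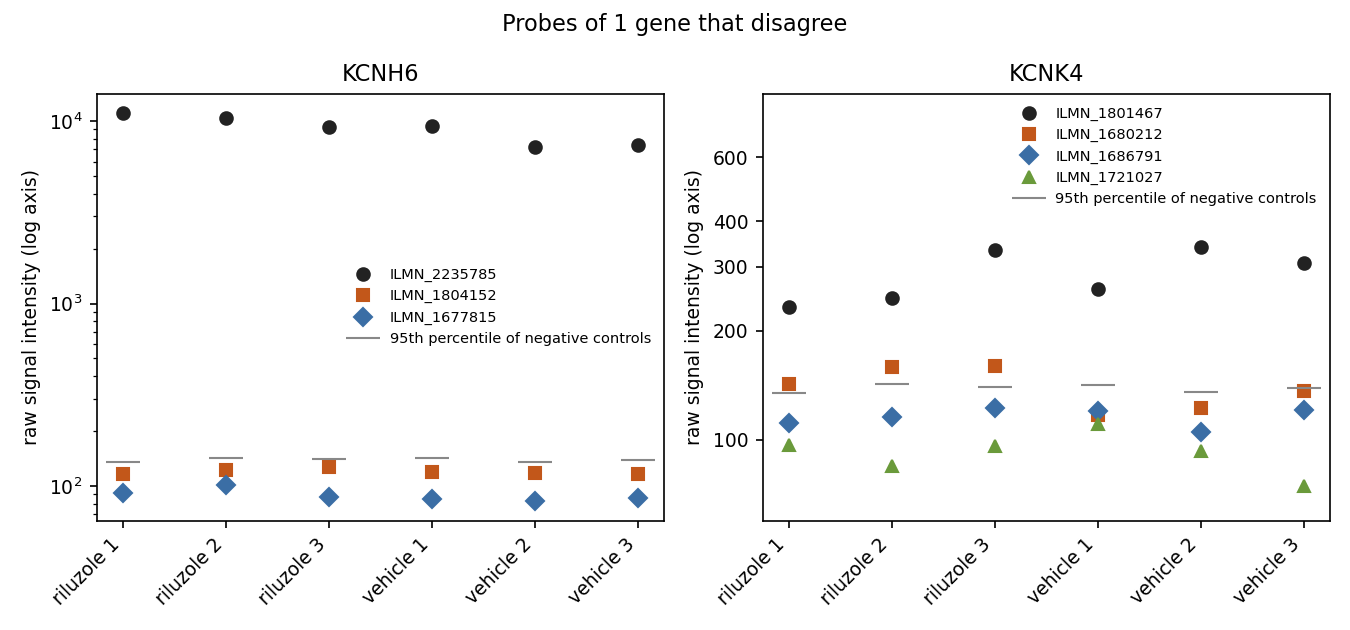
Raw signal intensity of every probe of KCNH6 (left) and KCNK4 (right) on each array, on log axes, with the 95th percentile of the negative control probes as grey dashes. One KCNH6 probe lies between 7188 and 11094 while the others lie at the controls, and 1 KCNK4 probe is above the controls on the riluzole arrays only.

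KCNH8 and KCNS3, of the same class, were near level. Log2 fold changes were 0.08 for KCNH8 (adjusted p = 0.834) and 0.02 for KCNS3, a silent subunit that modifies other channels (adjusted p = 0.961). KCNH8 passed detection on 2 riluzole arrays and 1 vehicle array. A further probe of KCNS3 also passed the filter and gave -0.37, not past the threshold. Over the 5 KCN genes with 2 kept probes, the probes had the same sign in 2, KCNIP3 among them, and opposite signs in 3, which were KCNK1, KCNK4 and KCNS3.

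Among regulators and noncoding transcripts, both members at an unadjusted p under 0.05 were lower with riluzole and lay at the limit of detection. Both met the detection filter through the vehicle group, and their mean riluzole levels lay below the lowest detected level of the riluzole arrays, 5.59 to 5.62 log2 units, so their differences are set against a group mostly at background. KCNQ1OT1 is the imprinted antisense RNA of the KCNQ1 locus. It was at 5.47, 5.84 and 5.37 log2 units with riluzole, against 5.80, 5.90 and 6.01 with vehicle, and passed on 1 riluzole array and 3 vehicle arrays. Its groups overlapped through riluzole replicate 2 (log2 fold change -0.34, adjusted p = 0.281). It was -0.16 without background correction and -0.60 with the authors' processed values. KCNQ1 itself and KCNQ1DN did not pass on any array. KCNRG, a soluble protein that interferes with the assembly of voltage-gated channels, was at 5.81, 5.37 and 5.21 with riluzole, against 5.98, 6.04 and 5.64 with vehicle, again on 1 riluzole and 3 vehicle arrays (log2 fold change -0.43, adjusted p = 0.286). For KCNRG the same settings gave -0.20 and -0.78.

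The remaining detected members did not pass either. KCNE5, a single-pass subunit that lowers KCNQ1 currents, was at 6.38, 5.91 and 6.22 log2 units with riluzole, against 6.13, 6.42 and 6.33 with vehicle (log2 fold change -0.12, adjusted p = 0.749). KCNJ10 was at 6.13, 6.55 and 6.58 with riluzole, against 6.63, 6.45 and 6.48 with vehicle (-0.10, adjusted p = 0.799). In both genes the 2 groups overlapped.

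**Figure D5:**
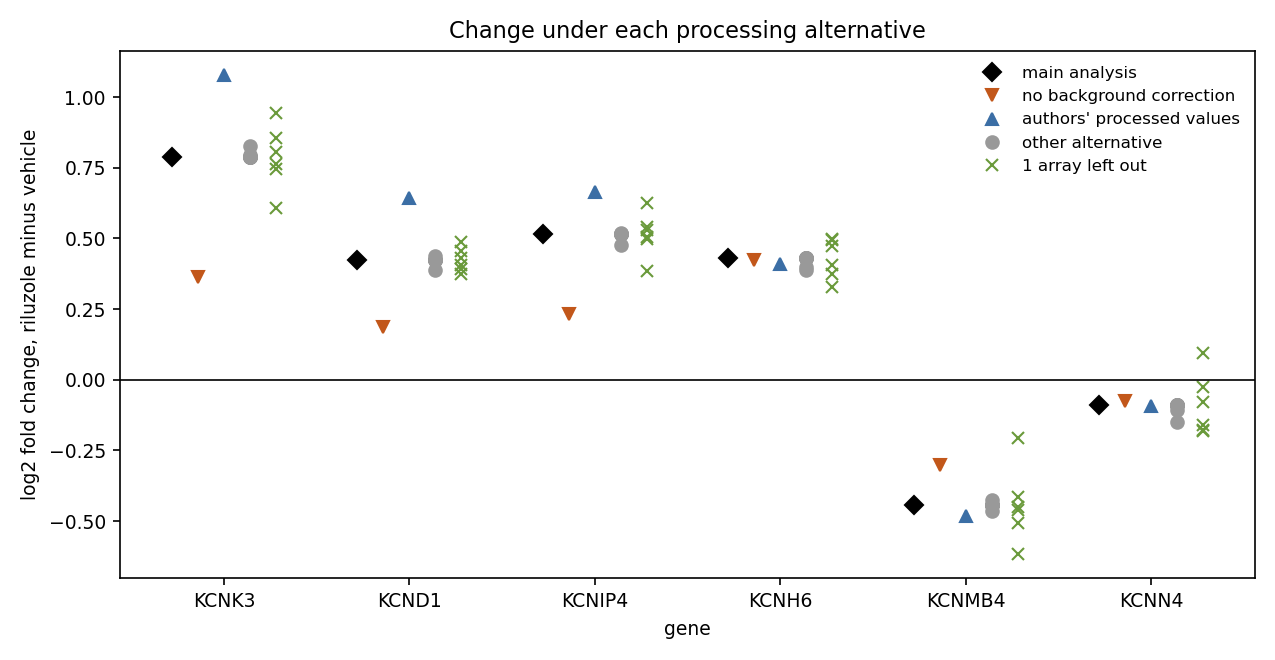
Log2 fold change, riluzole minus vehicle, of 6 KCN genes under the main analysis and each processing alternative. KCNK3, KCND1 and KCNIP4 are smaller without background correction and larger with the authors' processed values, KCNH6 lies between 0.33 and 0.50 throughout, and KCNN4 crosses 0 when vehicle replicate 3 is left out.

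Genes that work beside potassium channels were read from the same fit, with 1.18% of all genes called. Of 38 auxiliary and regulatory partners 29 were detected, and 0 passed, with 5 at an unadjusted p under 0.05 and a median log2 fold change of -0.02. Over all genes 48.3% were detected and 16.3% of those tested had an unadjusted p under 0.05, shares that also apply beside the next lists. YWHAB, of the adaptor family that promotes transport of KCNK3-type channels to the surface, was at 13.84 ± 0.03 log2 units with riluzole and 14.17 ± 0.02 with vehicle (SD, n = 3 each; adjusted p = 0.138). CALM2, one of the genes for calmodulin, the calcium sensor of KCNN channels, was at 14.60 ± 0.07 with riluzole and 14.92 ± 0.14 with vehicle (adjusted p = 0.202). For KCTD12, an auxiliary subunit of the GABA-B receptors that open inward rectifiers, the log2 fold change was -0.34 (adjusted p = 0.221). TMEM38A, also among the 5, was higher with riluzole (log2 fold change 0.42, limma adjusted p = 0.280). With an intensity trend and robust variance YWHAB (adjusted p = 0.0215) and CALM2 (adjusted p = 0.0389) passed, both lower with riluzole. That setting called 661 of all 14887 genes, where the main fit called 176. YWHAB differed by -0.33 log2 units in the main fit. The mean of its 2 kept probes gave -0.23, which did not pass (adjusted p = 0.237).

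Pumps, cotransporters and their regulators gave 14 detected of 18, again with 0 called, 4 at an unadjusted p under 0.05 and a median of 0.07. ATP1B1, the beta subunit of the sodium-potassium pump, was at 13.04 ± 0.20 log2 units with riluzole and 13.42 ± 0.08 with vehicle (log2 fold change -0.38, adjusted p = 0.188). It passed with an intensity trend and robust variance (adjusted p = 0.0380), and the mean of its 3 kept probes gave -0.20 (adjusted p = 0.358). For FXYD5, which modulates the pump, the log2 fold change was 0.26 (adjusted p = 0.255). SGK1, a kinase that raises the surface level of several channels, had -0.29 (adjusted p = 0.238), and the potassium-chloride cotransporter SLC12A4 had -0.28 (adjusted p = 0.295).

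Of 24 channels of volume and calcium control 15 were detected and 0 passed, with 3 at an unadjusted p under 0.05 and a median of 0.00. For PIEZO1, a mechanically gated cation channel, the log2 fold change was 0.29 (adjusted p = 0.221). The store-operated calcium channel ORAI1, which feeds calcium to KCNN4, had -0.29 (adjusted p = 0.303). LRRC8C, a subunit of the volume-regulated anion channel, had -0.31 (adjusted p = 0.298), and the scramblase ANO6 had -0.29 (adjusted p = 0.355).

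Between 20516 and 20959 probes passed detection per array, and median raw signals lay between 127 and 133. Taken across genes, which are no independent replicates, Pearson's r between arrays was 0.992 to 0.994 inside a group and 0.989 to 0.991 across groups. Array weights estimated by limma ran from 0.741 for riluzole replicate 1 to 1.53 for riluzole replicate 3. All 6 mesenchymal breast cancer markers looked up, among them VIM and CD44, were detected. Of 5 markers listed as absent, ESR1 and PGR passed on 0 arrays and CDH1 on 1, whereas EPCAM (11.10 ± 0.08 log2 units with riluzole and 11.16 ± 0.16 with vehicle) and GRB7 were. Of 10 markers of other cells, the leukocyte genes PTPRC and CD3E, the fibroblast gene DCN, the endothelial gene CDH5 and the neural genes SNAP25 and GFAP were not detected. The 4 that were detected were CD79A, LUM, COL1A1 and PECAM1. All 4 had positive log2 fold changes, the largest in PECAM1, at 7.17 ± 0.14 log2 units with riluzole and 6.75 ± 0.32 with vehicle, and 0 passed (PECAM1 adjusted p = 0.267). LUM and COL1A1 passed detection on only 3 arrays each, and in all 4 genes the groups overlapped. Their part in the KCN values was not tested.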

How the data were processed

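The authors deposited a table with the average bead signal of each probe as a linear intensity and a detection p-value, which ranks the probe among 770 negative controls; per the file headers these are raw signals. The authors also deposited processed intensities of the same arrays, made in a way not given in the sources used here, which served as an alternative only. The 979 control rows were left out. With limma 3.58.1 in R 4.3.3, neqc estimated background through the detection p-values, and with an offset of 16 the corrected signals were quantile normalized and put on a log2 scale, so folds of dim probes are drawn toward 1. Each gene was represented by its brightest probe among those with detection p under 0.05 on at least 3 of 6 arrays. Group was the only term of the limma fit, and p-values were adjusted over all 14887 genes by Benjamini-Hochberg at 0.05. Fits were tested on simulated data.

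Symbols were updated through the RefSeq gene table of GRCh38.p14. The members, lists, tests and alternatives were chosen with earlier results of these data known. Genes named in full were KCNK2, KCNN4, KCNMA1, the 12 detected members with the smallest p, probes detected on all arrays of 1 group and none of the other, and the 4 smallest p of each partner list. Other members named were chosen after their values were seen. The values of 1 detected member are not reported here. Arrays number 3 per group, which limits the precision.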

Additional observations from a re-analysis of the deposited data

How the results depend on the processing

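With 3 arrays per group and most KCN probes near background, small changes could not be resolved. The count of 0 KCN genes past the threshold became 1 without background correction (KCNH6) and 2 with a variance trend and robust settings (KCNH6, and KCNK3 at an adjusted p of 0.0471). It was 0 with the authors' processed values, array weights, median scaling, a stricter filter (detection p below 0.01 throughout the 6 arrays), no filter, the replicate block, averaged probes, each kept probe tested, negative control probes for background (chosen after seeing the data) and each array left out. The stricter filter left 12 KCN genes to test, and KCNK3, KCND1 and KCNIP4 were not among them. The count over all genes, 176, was 563 without background correction, 94 with the authors' values, 70 without a filter, 360 with the stricter filter and 661 with trend and robust variance. It ran from 10 to 30 with 1 array left out, with the same genes tested each time: 16, 30 and 10 without riluzole replicate 1, 2 or 3, and 29, 18 and 19 without vehicle replicate 1, 2 or 3. The replicate block gave 22 calls over all genes and 0 KCN genes. Same-numbered arrays did not deviate together (correlations across genes -0.15, -0.10 and 0.00), so the number was not taken as a pairing. Signs turned for KCNK4 with the mean of kept probes (0.19), and with 1 array left out for KCNN4 (-0.18 to 0.10, the highest without vehicle replicate 3), KCNE5 (-0.23 to 0.0079, without riluzole replicate 2), KCNJ10 (-0.18 to 0.049, without riluzole replicate 1) and KCNIP3 (0.16 to -0.020, without vehicle replicate 2), none of them called. The trend and filter settings alter the variance model or the genes tested. The cause of the changed counts and signs was not tested for any setting. Of 418 values of the named genes under the alternatives, 407 kept direction and side of the threshold, 6 came past it and 5 turned sign. Trend and robust variance, the replicate block, no filter and each kept probe tested left these log2 fold changes as in the main fit. No named gene had passed in the main fit, and few genes passed with 1 array left out, so much of the 407 was fixed in advance.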
